A study of Mus musculus with 24 samples.

Results

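B cell progenitors that lacked both PLCγ isoforms were compared with B cell progenitors that lacked PLCγ1 alone. By genotype the groups differed in the added loss of Plcg2 in cells without Plcg1. The comparison holds 6 of the 24 RNA-seq libraries of the series, 3 of genotype PLCgamma1-/-PLCgamma2-/- (Plcg1-/-Plcg2-/-) and 3 of genotype PLCgamma1-/-PLCgamma2+/+ (Plcg1-/-Plcg2+/+), chosen by the genotype and cell population that the labels give. The other B cell progenitor libraries, 3 Plcg1+/+Plcg2+/+ and 3 Plcg1+/+Plcg2-/-, entered the same fit, and common lymphoid progenitors (CLPs) of the same 4 genotypes made up the remaining 12 libraries.

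Both groups of the comparison carried floxed Plcg1 that an interferon-inducible MxCre transgene deleted after injections of poly(I-C) into the donors, and a Rosa-YFP reporter of Cre activity. Plcg2 was deleted in the germline of the double-deficient group, so that every cell type of the donor had lacked it since conception, whereas Plcg1 was lost in the haematopoietic and other interferon-responsive cells of the adult. Donor marrow was transplanted into lethally irradiated CD45.1+ recipients, and CD45.2+B220+IgM-IL-7R+ cells were sorted from recipient marrow 6 to 8 weeks later. Mice were 8 to 12 weeks old and on a mixed background of C57BL/6 and the strain 129. The number of donors behind each genotype is not given in the sources used here, so the p-values measure the spread between these libraries, and donor and genotype cannot be told apart if recipients shared a donor.

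PLCγ enzymes cleave a membrane inositol lipid into diacylglycerol, which activates protein kinase C and RasGRP proteins, and IP3, which releases calcium from internal stores. PLCγ2 acts downstream of the pre-B cell receptor (pre-BCR) and the B cell receptor and is the prominent isoform of mature B cells, while the related PLCγ1 is best known from T cells. B220+IgM- cells with IL-7 receptor span pre-pro-B, pro-B and pre-B cells, which grow in response to IL-7 and rearrange their immunoglobulin genes. By flow cytometry the paper reported a block at the pre-pro-B stage in double-deficient recipients, with CD25+ pre-B cells hardly detectable. The mix of stages among the sorted cells may thus differ between the groups, and its part in the results was not tested.

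The 3 Plcg1-/-Plcg2+/+ libraries held 5735871 to 7515523 reads on genes, and the 3 Plcg1-/-Plcg2-/- libraries 2858724, 25057223 and 7478166, so that the smallest library resolved 3 reads at 1.05 CPM (a gene's reads scaled to a library of 1000000 reads on genes) and the deepest at 0.12 CPM. Of all reads, 66.5%, 87.3% and 73.6% lay on no gene in Plcg1-/-Plcg2+/+ libraries 1, 2 and 3, against 61.4%, 60.3% and 63% in the Plcg1-/-Plcg2-/- libraries, and the groups did not overlap. As a measure of background chosen after the data were seen, 1125 olfactory receptor genes, which B lineage cells are not known to use, summed to 189, 1740 and 357 unscaled CPM in the Plcg1-/-Plcg2+/+ libraries and 71.4, 43.1 and 120 in the Plcg1-/-Plcg2-/- libraries. This background therefore moved with the comparison, and it was largest in Plcg1-/-Plcg2+/+ library 2. Its part in the lower values of genes at a few CPM was not tested beyond a fit with the share of reads on no gene as a covariate. Markers of the B lineage were present in all 6 libraries, with summed CPM of 14 such genes of 3413 to 5945 against 3599 to 11920. Of 17 granulocyte and monocyte markers, which include Mpo and Elane, all 17 passed the filter on low counts and 0 were called, and their summed CPM spanned 3322 to 11250 in Plcg1-/-Plcg2+/+ and 3635 to 10170 in Plcg1-/-Plcg2-/- libraries. No member of the 13 marker lists was called in edgeR, and the summed CPM of each of the other 11 lists overlapped between the groups too (stem and multipotent progenitor, macrophage, dendritic cell, T cell, NK and innate lymphoid, erythroid, megakaryocyte, plasma cell, basophil and mast cell, stroma and endothelium, and sex-linked transcripts). T cell markers, for example, summed to 101 to 333 CPM against 175 to 259 CPM. The part of such RNA in the results was not tested. Fewer cells of a type and less RNA per cell cannot be told apart in such bulk libraries.

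**Figure D1:**
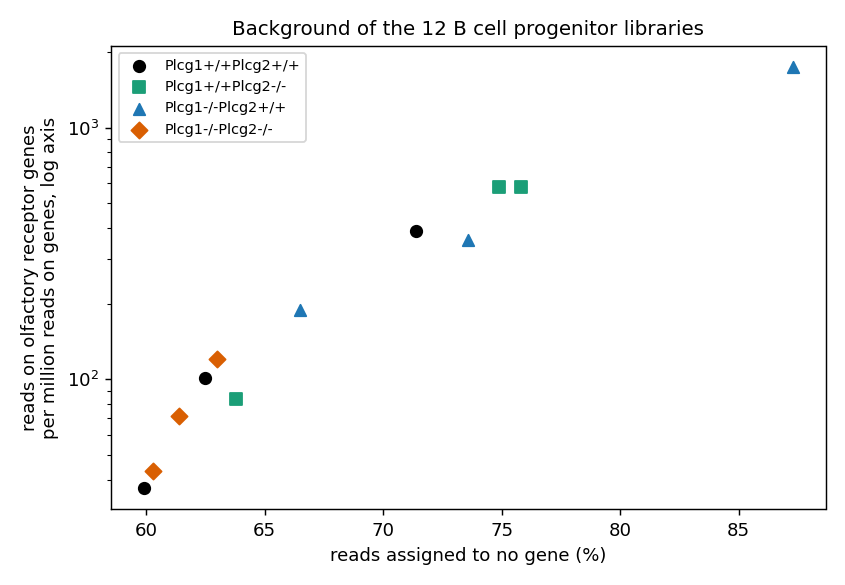
Background of the 12 B cell progenitor libraries, with the share of reads on no gene (%) on the horizontal axis and the summed unscaled CPM of 1125 olfactory receptor genes on a log vertical axis. Each point is 1 library, with 3 per genotype. Plcg1-/-Plcg2+/+ library 2 stands at 87.3% and 1740 CPM, and the 3 Plcg1-/-Plcg2-/- libraries lie at or below 63% and 120 CPM.

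The targeted gene was lower in the genotype that should lack it. Plcg2 stood at 184, 201 and 233 CPM in the Plcg1-/-Plcg2+/+ libraries and at 72.7, 91.2 and 111 CPM in the Plcg1-/-Plcg2-/- libraries. The groups did not overlap, and the log2 fold change was -1.16 ± 0.16 (SE; edgeR quasi-likelihood, adjusted p = 0.0323). Plcg2 was also lower in Plcg1+/+Plcg2-/- than in Plcg1+/+Plcg2+/+ B cell progenitors, by a log2 fold change of -1.37. Reads on the gene remained in every Plcg2-/- library, and counts over a whole gene do not show which exons they cover. Plcg1, which both groups were bred to lack, was at 60.8, 80.2 and 99.3 CPM in Plcg1-/-Plcg2+/+ and at 56.5, 183 and 140 CPM in Plcg1-/-Plcg2-/- libraries. The Plcg1 values of the groups overlapped, with a log2 fold change of 0.67 ± 0.34 (edgeR adjusted p = 0.35), and Plcg1+/+Plcg2+/+ libraries held 80.7 to 113 CPM. The gene total therefore does not report the deletion of the floxed part.

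With the added loss of Plcg2, the genes that fell included Blk, Cd22, Ciita, Il2ra, Fcmr and Ccr7, and the genes that rose included the calcium channel gene Cacna1i. Of 15001 genes tested, 32 were called (0.213%), where a call needed an edgeR p adjusted over all genes of 0.05 or less and a log2 fold change of 0.5 or more in size. Of these, 23 were lower (0.153%) and 9 were higher (0.06%) in Plcg1-/-Plcg2-/- cells. The fold changes ran from -4.29 to -1.07 on the log2 scale for the lower genes and from 1.08 to 2.68 for the higher ones, while the median over all genes tested was -0.03. The groups of 3 libraries did not overlap for any of the 32 called genes, beside 11% lower and 5.67% higher of all genes tested. The 32 were chosen by p in the same libraries, so their separation is no further support. Without a fold limit or adjustment, p was at most 0.05 for 1875 lower genes (12.5%) and 619 higher genes (4.13%), so small p-values leaned to the side of the falls. The size of this lean differed between fits. The numbers were 786 lower and 759 higher with the share of reads on no gene as a covariate. They were 722 lower and 516 higher without Plcg1-/-Plcg2+/+ library 2. Among 12811 genes tested in the 6 libraries alone they were 669 and 455. After thinning to 2858724 reads they were 663 and 468 among 11879 genes. The share of reads on no gene did not overlap between the groups, so the covariate cannot separate background from genotype. The cause of the lean was not tested. Of 1814 genes with a log2 fold change under -2, 1751 (96.5%) had their highest value in Plcg1-/-Plcg2+/+ library 2. Their median level was 2.64 CPM in Plcg1-/-Plcg2+/+ and 0.277 CPM in Plcg1-/-Plcg2-/- cells. The number called rested on each library: it was 58 without Plcg1-/-Plcg2-/- library 1, 0 without library 2 and 2 without library 3, and 0, 3 and 11 without Plcg1-/-Plcg2+/+ libraries 1, 2 and 3. With the share of reads on no gene as a covariate 3 genes were called, of which Dtx1 and Pcdh9 are among the 32. All 32 kept their direction and an unadjusted p of at most 0.05 in each of these fits. The fits reused libraries by which the 32 were chosen, so this was close to fixed in advance.

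**Figure D2:**
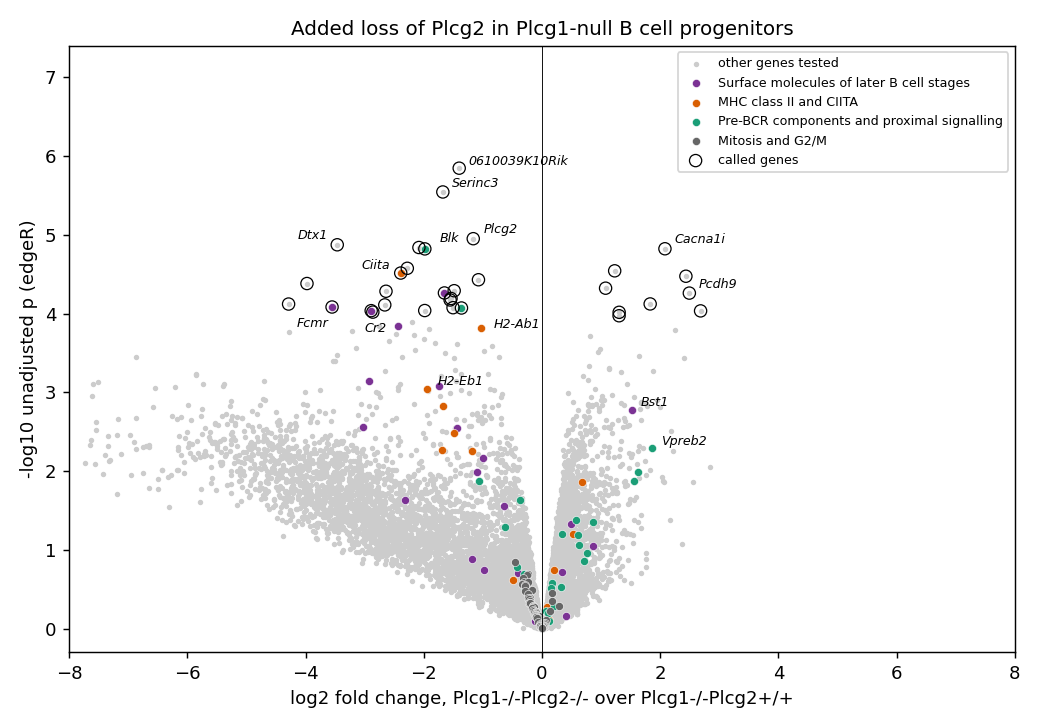
All 15001 genes tested, with the log2 fold change of Plcg1-/-Plcg2-/- over Plcg1-/-Plcg2+/+ B cell progenitors on the horizontal axis and -log10 of the unadjusted edgeR p on the vertical axis. Colours mark members of 4 gene lists and open circles the 32 called genes, and the grey cloud at the lower left is made up largely of genes that were highest in Plcg1-/-Plcg2+/+ library 2, as 1751 of 1814 genes under -2 were. Mitosis genes sit near 0, and members of the later B cell and MHC class II lists lie mostly to the left.

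The Src family kinase Blk, which acts at the pre-BCR, stood at 118, 160 and 118 CPM in Plcg1-/-Plcg2+/+ and at 24.5, 36.3 and 38.4 CPM in Plcg1-/-Plcg2-/- libraries. Its log2 fold change was -1.98 ± 0.29 (edgeR adjusted p = 0.0323). Cd22, an inhibitory co-receptor of the B cell receptor, fell from 143, 108 and 80.4 CPM to 46.3, 34.4 and 48.9 CPM, a log2 fold change of -1.36 ± 0.24 (edgeR adjusted p = 0.0465). For both genes the lowest Plcg1-/-Plcg2+/+ library was well above the highest double-deficient one. They were the called members of a list of 26 pre-BCR components and proximal signalling genes, beside 0.153% of all genes called lower. The list's median log2 fold change was 0.15. In that list p was at most 0.05 for 4 members on the lower side, with Cd72 at -1.07 and Lyn at -0.37, and for 5 on the higher side, beside 12.5% and 4.13% of all genes. The higher side held the surrogate light chain genes Vpreb2, Vpreb1 and Igll1, at log2 fold changes of 1.86, 1.63 and 1.56, with edgeR adjusted p-values of 0.167, 0.182 and 0.19. Vpreb2 was at 5.3, 22.9 and 19.3 CPM against 28.4, 79.2 and 63.9 CPM without overlap, whereas the groups of Vpreb1 overlapped at 58.1 to 228 against 223 to 669 CPM and those of Igll1 overlapped too. With the share of reads on no gene as a covariate Vpreb2 stood at 3.13 and Vpreb1 at 3.01, with edgeR adjusted p-values of 0.183 and 0.177.

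Surface molecules of later B cell stages gave 3 called genes among 27 tested, all lower, beside 0.153% of all genes called lower. Il2ra, the alpha chain of the IL-2 receptor and a marker of pre-B cells, was at 36.3, 69.3 and 31.6 CPM in Plcg1-/-Plcg2+/+ and at 8.59, 2.93 and 8.53 CPM in Plcg1-/-Plcg2-/- libraries (log2 fold change -2.89 ± 0.50, edgeR adjusted p = 0.0465). Fcmr, the Fc receptor for IgM, was at 53.8, 23.4 and 10.8 CPM against 3.97, 1.62 and 2.8 CPM (log2 fold change -3.55 ± 0.61, edgeR adjusted p = 0.0465). Ccr7, a homing receptor for lymph node chemokines, was even within each group, at 38.4, 37.7 and 35.6 CPM against 9.92, 13.1 and 12 CPM (log2 fold change -1.65 ± 0.27, edgeR adjusted p = 0.0457). None of these 3 genes had overlapping groups, and Fcmr varied most within a group. The list's median log2 fold change was -0.65. Of its 27 members, 12 were lower and 2 higher at an unadjusted p of 0.05 or less, beside 12.5% and 4.13% of all genes. Cr2, the complement receptor of mature B cells, had a log2 fold change of -2.44 and an edgeR adjusted p of 0.0622. The low-affinity IgE receptor gene Fcer2a stood at -3.02 and Cd2 at -1.73, neither called. On the higher side Bst1, an ectoenzyme of early progenitors and stroma, stood at 1.52 (edgeR adjusted p = 0.161). The groups did not overlap for 10 lower and 2 higher members, beside 11% and 5.67% of all genes tested.

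Ciita, the master coactivator of MHC class II transcription, stood at 44.3, 35.6 and 47.9 CPM in Plcg1-/-Plcg2+/+ libraries and at 11.9, 5.27 and 8.67 CPM in Plcg1-/-Plcg2-/- libraries. The groups were far apart, at a log2 fold change of -2.39 ± 0.37 (edgeR adjusted p = 0.0457). It was the called member of 16 genes of the class II pathway, of which 7 were lower and 1 higher at an unadjusted p of at most 0.05, beside 12.5% and 4.13% of all genes and 0.213% called, with a median log2 fold change of -0.25. H2-Ab1, a beta chain, was at 222, 193 and 269 CPM against 121, 94.8 and 121 CPM (log2 fold change -1.03 ± 0.19, edgeR adjusted p = 0.0638). H2-Eb1, the other beta chain, had a log2 fold change of -1.94 and H2-Aa, the alpha chain, of -1.67, with edgeR adjusted p-values of 0.142 and 0.153. Both were lowest in Plcg1-/-Plcg2-/- library 2, at 11.7 CPM for H2-Eb1 and 23.1 CPM for H2-Aa. Library 2 was also the lowest of the Plcg1-/-Plcg2+/+ libraries, at 91.9 CPM for H2-Eb1 and 135 CPM for H2-Aa. When like-numbered libraries were blocked, H2-Ab1, H2-Eb1 and H2-Aa were called too (edgeR adjusted p = 0.0292, 0.0459 and 0.0469). The numbers were not taken to pair the samples, so that fit stands as an alternative only. The peptide-loading genes H2-Oa and H2-Ob lay on the higher side, at 0.68 and 0.53, and were not called.

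The upstream 250 bases of H2-Aa and H2-Eb1 are shown because these genes lay on the same side as Ciita and because CIITA acts through the X and Y boxes of class II promoters. Capitals mark CTNGCAAC, the start of an X box, and TGATTGG, a Y box. The sequences are from RefSeq (build GRCm38.p6) and read 5′ to 3′ toward the transcription start, H2-Aa from chr17:34287824-34288073 on the minus strand and H2-Eb1 from chr17:34305617-34305866 on the plus strand.
H2-Aa: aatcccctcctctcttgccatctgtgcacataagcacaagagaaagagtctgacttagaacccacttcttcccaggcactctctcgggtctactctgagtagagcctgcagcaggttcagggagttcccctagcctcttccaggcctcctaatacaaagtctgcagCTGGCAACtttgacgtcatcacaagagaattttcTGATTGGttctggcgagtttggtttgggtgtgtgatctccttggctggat
H2-Eb1: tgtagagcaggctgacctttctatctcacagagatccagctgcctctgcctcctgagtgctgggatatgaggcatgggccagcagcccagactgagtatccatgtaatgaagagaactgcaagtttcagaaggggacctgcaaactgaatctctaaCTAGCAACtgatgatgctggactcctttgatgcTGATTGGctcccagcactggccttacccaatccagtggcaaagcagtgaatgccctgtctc
The X box letters began 84 bases before the start of H2-Aa and 94 before that of H2-Eb1, and the Y box began at 50 and 61. Searched on both strands of the 250 bases, TGATTGG was in 8 of 13 windows of the class II list (12 of its 16 genes matched) and in 7.23% of 32851 windows of all genes, and CTNGCAAC was in 4 of 13 and in 2.84%. Both were in 0.244% of all windows. TGATTGG was also found for H2-Oa and H2-Ob, and CTNGCAAC for H2-Ob, and both of these genes lay on the higher side. Among 29 windows of 26 called genes, TGATTGG was in 3, in Myo1e and Pcdh9, and CTNGCAAC in 0. A palindromic EBF motif (TCCC and GGGA with any 2 bases between) was in 2 of these 29 windows, those of Cd22 and Myo1e, and in 0.779% of all windows. These matches describe the letters and not binding.

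Serinc3 and the lncRNA gene 0610039K10Rik had the smallest p-values of the comparison. Serinc3, a multipass membrane protein that restricts retroviruses, fell from 1320, 1664 and 1373 CPM to 470, 320 and 574 CPM, a log2 fold change of -1.68 ± 0.21 (edgeR adjusted p = 0.0214), the highest level among called genes. 0610039K10Rik fell from 92.9, 74.9 and 89.2 CPM to 33.1, 27.5 and 37.2 CPM, a log2 fold change of -1.40 ± 0.16 (edgeR adjusted p = 0.0213). The genes lie head to head and share 300 bases, with Serinc3 at chr2:163623273-163645149 and 0610039K10Rik at chr2:163644850-163645800 (RefSeq, GRCm38.p6). The counting is not stated to use strand, so reads from the shared bases cannot be told apart, and the pair is not independent evidence. The lncRNA count was 4.5% to 7.04% of the Serinc3 count in Plcg1-/-Plcg2+/+ and 6.48% to 8.6% in Plcg1-/-Plcg2-/- B cell progenitors. In the CLP libraries of the same genotypes it was 0.17% to 0.233%. Ambiguous reads made up 1.06% to 1.44% of all reads in CLP libraries, against 0.11% to 0.42% in B cell progenitors.

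Across all 4 genotypes Serinc3 had a pattern of its own. It was highest in Plcg1+/+Plcg2-/- B cell progenitors (2405, 3196 and 2731 CPM), lower in Plcg1+/+Plcg2+/+ (1766, 1921 and 1692 CPM), lower again in Plcg1-/-Plcg2+/+ and lowest in Plcg1-/-Plcg2-/- cells, with no overlap between neighbouring groups. Loss of Plcg2 thus went with a log2 fold change of 0.63 where Plcg1 was intact and of -1.68 where it was deleted, and the test of that difference gave -2.31 ± 0.29 (edgeR adjusted p = 0.024). Serinc3 lies 2.85 Mb from Plcg1 (chr2:160731310-160775760), and the mice were of mixed strain background. Of 97 genes tested within 5 Mb of Plcg1, Serinc3 and 0610039K10Rik were the 2 called genes, beside 0.213% called of all genes. Of the 97, 8 were lower and 3 higher by an unadjusted p of 0.05 or less, beside 12.5% and 4.13% of all genes, with a median log2 fold change of -0.07. Within 5 Mb of Plcg2 on chromosome 8, Plcg2 itself was the called gene among 55, with 8 lower and 1 higher at that level. Linked strain variants were not tested.

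The remaining called genes that fell covered signalling, chromatin and the cytoskeleton. Dtx1, which encodes the Notch regulator Deltex1, was at 16.5, 6.24 and 6.6 CPM against 1.65, 0.893 and 0.4 CPM (log2 fold change -3.46 ± 0.49, edgeR adjusted p = 0.0323). The class IIa histone deacetylase genes Hdac5 and Hdac9 fell by 1.07 and 1.48 on the log2 scale, with Hdac5 the more abundant at 175, 206 and 176 CPM against 103, 72.9 and 90 CPM. The Ral exchange factor gene Ralgps2 fell from 148, 146 and 95.7 CPM to 50.6, 36.4 and 51.5 CPM, and the Rab regulator gene Dennd5b fell by 1.55 on the log2 scale. Genes of actin and adhesion were Lima1 (-2.08), Myo1e (-1.98), Myzap (-2.64), Itga9 (-2.66), Amigo1 (-1.54) and the myosin light chain gene Myl4 (-2.86). Myl4 was highest in Plcg1-/-Plcg2+/+ library 2 at 273 CPM, beside 102 CPM in each of the other Plcg1-/-Plcg2+/+ libraries and 19.5 to 24.1 CPM in the double-deficient ones. Low-level genes were the SLAM family receptor gene Slamf9 (-2.28), the potassium leak channel gene Kcnk13 (-3.98) and the RNA-binding protein gene Rbm24 (-4.29). Kcnk13 stood at 3.21, 7.15 and 2.08 CPM against 0.331, 0.298 and 0.133 CPM, and Rbm24 at 8.83, 19 and 6.6 CPM against 0, 0.255 and 1.47 CPM, so their double-deficient values were at or near the level of a few reads. In 15 of the 23 falling genes the highest of the 6 values was in Plcg1-/-Plcg2+/+ library 2, the library with most reads on no gene. With the share of reads on no gene as a covariate, Myl4 had a log2 fold change of -1.56 (edgeR adjusted p = 0.222) and Itga9 of -1.62 (edgeR adjusted p = 0.258), while Dtx1 stood at -3.89 (edgeR adjusted p = 0.0455).

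Cacna1i, a low-voltage-activated calcium channel subunit, rose from 29.5, 18.6 and 20.7 CPM to 80.3, 101 and 109 CPM, a log2 fold change of 2.08 ± 0.30 (edgeR adjusted p = 0.0323). Pcdh9, a protocadherin, rose from 3.05, 7.54 and 7.12 CPM to 27.1, 30.6 and 42.3 CPM, a log2 fold change of 2.49 ± 0.41 (edgeR adjusted p = 0.0457; 3.56 and 0.0165 with the covariate). Acy3, an aminoacylase, stood at 3.21, 3.9 and 4.17 CPM against 8.59, 27.9 and 23.6 CPM. The lowest double-deficient library of Acy3 was thus nearer to the Plcg1-/-Plcg2+/+ libraries than to the other 2. The secreted ribonuclease gene Rnase12 rose by a log2 fold change of 1.83, the lysophospholipid acyltransferase gene Lpcat2 by 1.08 and Serpinf1, which encodes a secreted serpin, by 1.31. H2-T10 (1.23) is a transcribed pseudogene among near-identical class I genes, and BC002163 (2.68) resembles Ndufs5, so the assignment of their reads is uncertain. BC002163 was at 1.12, 2.47 and 0.347 CPM in Plcg1-/-Plcg2+/+ and at 9.92, 9.66 and 6.93 CPM in Plcg1-/-Plcg2-/- libraries. It was at 9.89, 7.64 and 7.42 CPM in Plcg1+/+Plcg2+/+ and at 8.45, 8.18 and 10.9 CPM in Plcg1+/+Plcg2-/- libraries. The Plcg1-/-Plcg2+/+ group was thus the low one for this gene, and the double-deficient level was that of the Plcg1+/+ groups.

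**Figure D3:**
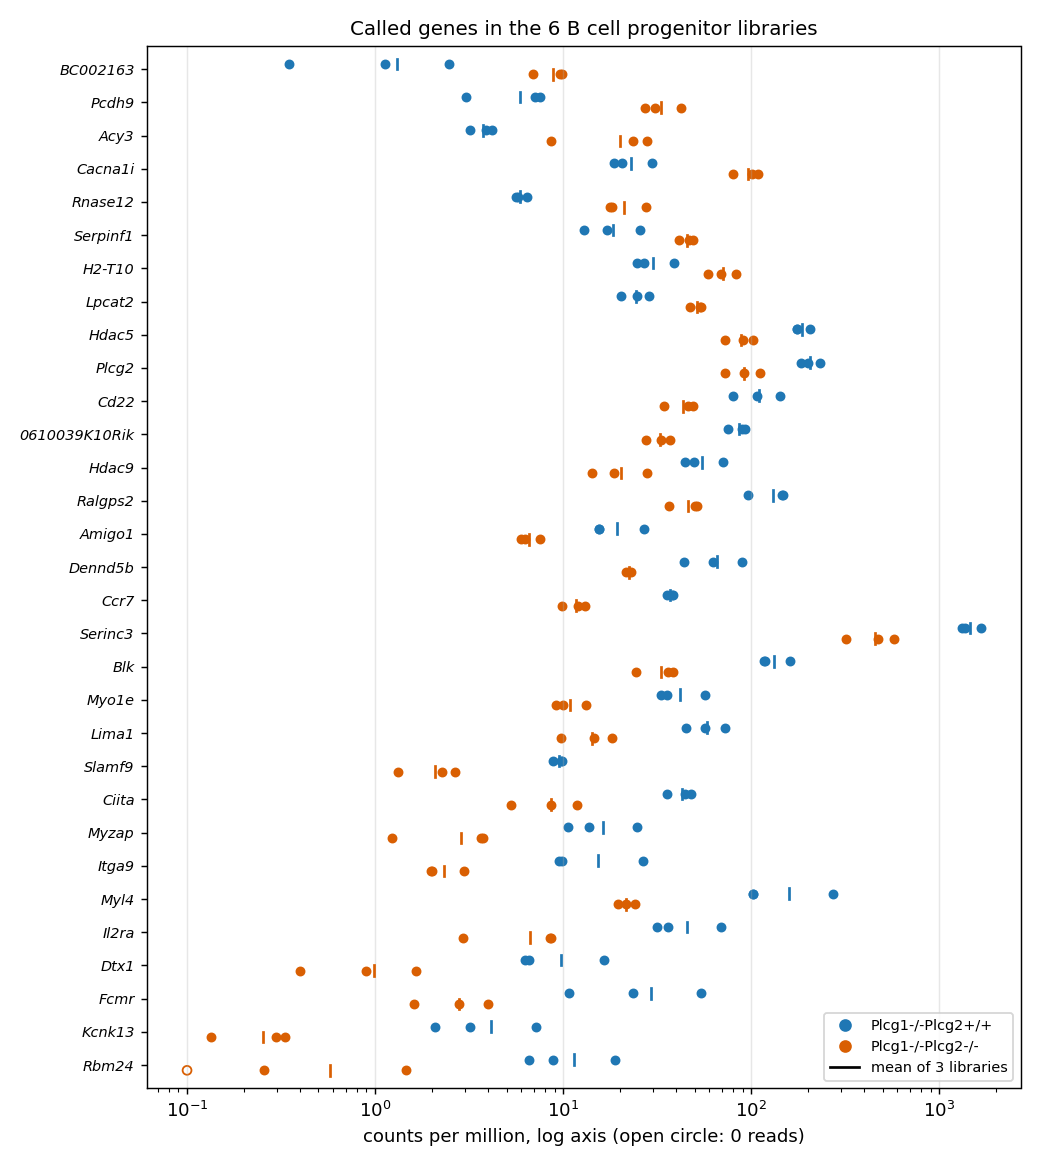
CPM of 31 of the 32 called genes in each of the 6 libraries on a log axis, blue for Plcg1-/-Plcg2+/+ and orange for Plcg1-/-Plcg2-/-, with a vertical bar at the mean of 3 libraries and an open circle for 0 reads. The 8 genes drawn that rose are at the top, and the colours do not overlap in any row. The genes were chosen by p in these libraries.

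Genes of the PLCγ pathway itself gave no call. Of 29 genes of diacylglycerol signalling, 5 were lower and 2 higher at an unadjusted p of at most 0.05, with a median log2 fold change of 0.02. Over all genes these shares were 12.5% lower and 4.13% higher, so that the count on either side was near the background. Rasgrp1, a Ras activator that binds diacylglycerol, was at 77, 57.2 and 57.3 CPM against 16.5, 2.93 and 14.9 CPM. Its groups were far apart, with a log2 fold change of -2.59 ± 0.50, but the edgeR adjusted p was 0.0733. Its relative Rasgrp2 lay on the other side, at 236, 219 and 292 CPM against 335, 607 and 445 CPM (0.89, edgeR adjusted p = 0.142). Of 22 other PLC and inositol lipid enzymes 1 was lower, Plce1, at 14 CPM in Plcg1-/-Plcg2+/+ library 2 and under 3 CPM in the other 5, and its log2 fold change was -3.49 without and -0.27 with the covariate. Of 25 genes of IP3 receptors, calcium entry, calcineurin and NFAT, 2 were higher and 2 lower, with Orai2 at 0.57 and Ppp3ca at 0.39.

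mTOR, IL-7 and cell cycle genes gave no call. Of 38 mTOR complex and regulator genes 0 were called, 2 were higher and 1 lower at an unadjusted p of at most 0.05 in edgeR, and the median log2 fold change was 0.05. Rptor, the defining subunit of mTORC1, was at 67.7, 78.4 and 90.3 CPM against 76.7, 174 and 125 CPM (0.68, edgeR adjusted p = 0.21), Mtor at -0.57 (0.217), and Rictor, of mTORC2, at -0.19 (0.59). Of 25 IL-7 receptor and STAT5 pathway genes 3 were lower and 0 higher at that level, near the 12.5% and 4.13% of all genes. The survival kinase gene Pim2 was at 27, 23.9 and 35.4 CPM against 15.5, 14.4 and 13.7 CPM without overlap (-0.99 ± 0.20, edgeR adjusted p = 0.0856), and Ccnd2, which encodes cyclin D2, stood at -0.96 (0.161) and Socs1 at -0.88 (0.239). Il7r itself was at 157, 396 and 286 CPM against 153, 424 and 353 CPM (0.15, edgeR adjusted p = 0.938), and at 1.14 with the share of reads on no gene as a covariate (edgeR adjusted p = 0.454). Of 61 mitosis genes 0 were called and 0 reached an unadjusted p of 0.05, with fold changes between -0.45 and 0.29 on the log2 scale. Of 50 replication genes 0 were called in edgeR, and 2 were higher and 1 lower at that level, among them Tyms at 0.73 and Pole at -0.51.

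Transcription factors of the B lineage gave 0 calls among 33, with 3 higher and 6 lower at an unadjusted p of at most 0.05, beside 4.13% and 12.5% of all genes. The specification factors had overlapping groups. Ebf1 stood at 222, 513 and 451 CPM against 179, 930 and 606 CPM (0.54, edgeR adjusted p = 0.717), Pax5 at -0.36 (0.702) and Tcf3 at 0.05 (0.978). Bach2, a repressor that acts at the pre-BCR checkpoint, was at 313, 513 and 373 CPM against 106, 165 and 160 CPM (-1.47, edgeR adjusted p = 0.115). Ikzf3, which encodes Aiolos, was at 233, 195 and 157 CPM against 67.4, 38 and 75.1 CPM (-1.71, 0.122), and Irf4 stood at -1.69 (0.167). Erg (1.78) and Bcl11a (0.92), factors of earlier progenitors, lay on the other side, both with an edgeR adjusted p of 0.153. The groups did not overlap for Bach2, Ikzf3 and Irf4, nor for Erg and Bcl11a. In the list this held for 4 lower and 3 higher members of 33, beside 11% and 5.67% of all genes. Among 20 genes of V(D)J recombination, Polm, which encodes the end-joining DNA polymerase mu, was at 91.8, 88.3 and 64.2 CPM against 19.8, 10.2 and 24.7 CPM (-2.19, edgeR adjusted p = 0.0578). Rag1, Rag2 and Dntt had log2 fold changes of 1.00, 1.06 and 1.54 with wide and overlapping groups, 140 to 579 CPM against 245 to 2117 CPM for Dntt, which stood at 2.79 with the covariate (edgeR adjusted p = 0.397).

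Metabolic and stress lists gave no call, and their counts at an unadjusted p of at most 0.05 stand beside 12.5% lower and 4.13% higher among all genes. The 81 ribosomal protein genes had a median log2 fold change of 0.10 and the 73 subunits of oxidative phosphorylation of 0.14, and 67 and 65 of them lay above 0, with 0 called in edgeR and 0 and 1 at the unadjusted level. Of 26 glycolysis genes 2 were higher, Pfkm at 0.33 and Pdk1 at 0.52. Of 29 cholesterol and lipid synthesis genes 1 was higher and 1 lower, Dhcr7 at 0.52 and Acaca at -0.61. Interferon-stimulated genes gave 3 higher and 0 lower of 29, with Oas1a at 10.8, 13.1 and 11.1 CPM against 20.5, 24.4 and 21.6 CPM (0.93, edgeR adjusted p = 0.167). Poly(I-C) induces such genes, the donors of both groups received it before transplantation, and its part was not tested. Of 32 immediate early and ERK feedback genes 3 were lower and 1 higher, and the median was -0.42. In that list Dusp10 stood at -1.06 and Nr4a3 at -2.91, the latter at under 7 CPM in all 6 libraries. Of 27 genes of cell death 3 were higher and 0 lower, with Casp8 at 0.28, and of 27 genes of ATF4 and ER stress 1 was higher and 3 lower. The remaining list, 25 D cyclins, CDKs, E2Fs and inhibitors, gave 2 lower members, Ccnd2 and E2f1 (-0.44).

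**Figure D4:**
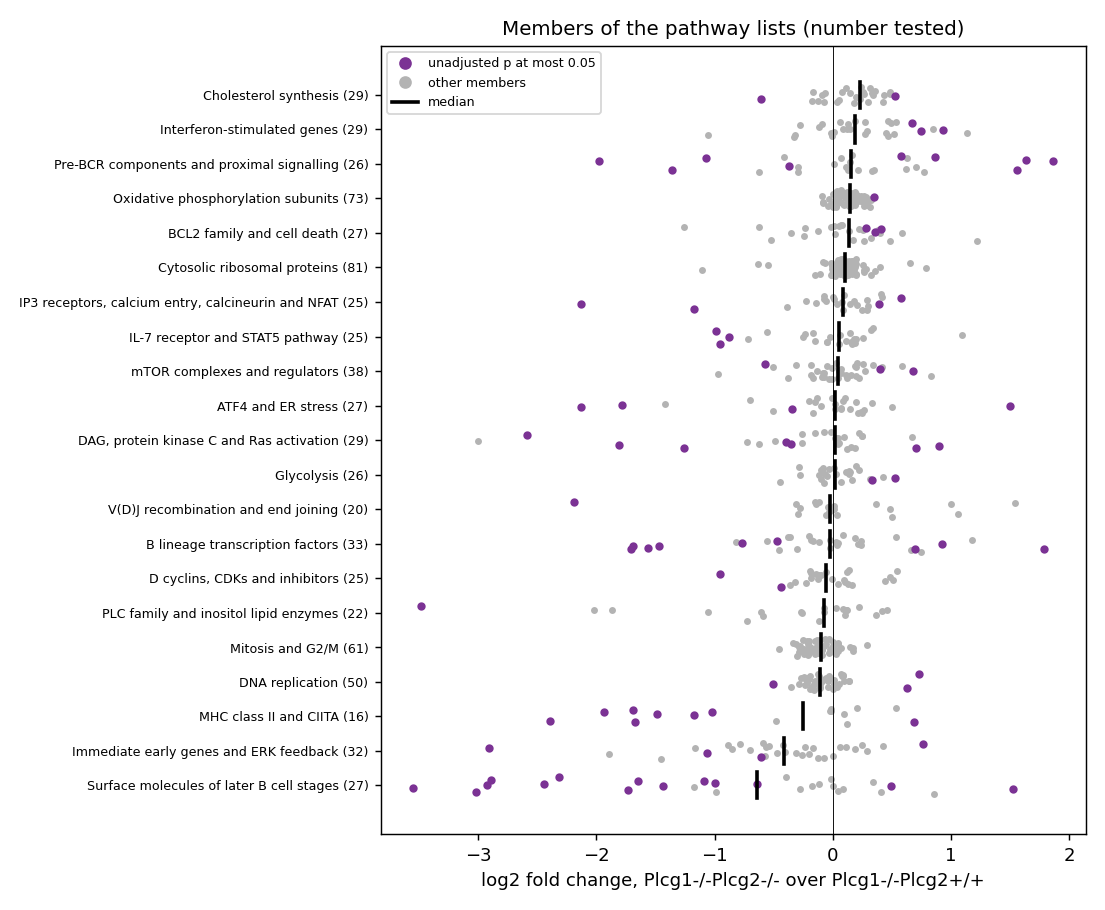
Log2 fold changes of the members of 21 pathway lists, with the number tested in brackets, purple for members with an unadjusted p of at most 0.05, grey for the others and a black bar at the median. The lists of later B cell surface molecules, immediate early genes and MHC class II genes have the lowest medians, and mitosis genes lie within -0.45 and 0.29.

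The same loss of Plcg2 could be followed where Plcg1 was intact and in CLPs. In Plcg1+/+ B cell progenitors, which share no library with the comparison, 29 of the 32 genes had the same sign in Plcg1+/+Plcg2-/- against Plcg1+/+Plcg2+/+. Of these, 18 reached an unadjusted p of 0.05 (beside 2.84% of the genes there, in either direction). The 32 include the targeted gene Plcg2 and the overlapping pair Serinc3 and 0610039K10Rik. Both comparisons took each gene's spread from 1 fit, so these p-values are not independent of the choice of the 32. Plcg2 and Rnase12 were called in both. The exceptions in sign were Serinc3, 0610039K10Rik and Acy3. Blk stood at -1.33 there, with 205, 217 and 187 CPM against 72.4, 117 and 45.6 CPM, and Amigo1 at -1.54. Ciita, Cd22 and Kcnk13 stood at -0.10, -0.06 and -0.05, with Ciita at 44.6, 41.2 and 41.5 CPM against 31.4, 61.9 and 20.4 CPM. H2-Aa and H2-Ab1 stood at 0.04 and 0.14 there. The test of the difference between both backgrounds called 4 of 15001 genes (0.0267%): Serinc3, 0610039K10Rik, Mmp14 and Eps8l1. For Ciita the difference was -2.29 ± 0.50 and for Cd22 -1.30 ± 0.33, both with an edgeR adjusted p of 0.19, so a different response of these genes was not called. That test contains the comparison by which the 32 genes were chosen.

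In CLPs, sorted as Lin-IL-7R+ cells, Plcg1-/-Plcg2-/- and Plcg1-/-Plcg2+/+ libraries were compared in their own fit. All 32 genes, which include Plcg2, had the same sign there, and 28 reached an unadjusted p of 0.05. Of 15209 genes, 4.29% did so in either direction. Cacna1i had a log2 fold change of 3.12 in CLPs and Pcdh9 of 3.66, against 2.08 and 2.49 in B cell progenitors. Serinc3 stood at -1.91 and BC002163 at 3.02, both called (edgeR adjusted p = 0.0048 and 0.0029). Blk stood at -1.99, Ccr7 at -1.62, Fcmr at -3.33 and Il2ra at -1.75 in CLPs, none of them called. The test of the difference between B cell progenitors and CLPs, with the mouse as a block, called 0 of 17212 genes (edgeR, 0%), and 455 reached an unadjusted p of 0.05. The share of reads outside genes was 17.9% to 45.2% in the CLP libraries and 59.9% to 87.3% in the B cell progenitor libraries, so the populations may have been counted with different settings, and the part of this in the test between them was not tested. Genotype and replicate number were taken to name the mouse. On that reading both populations come from the same mice, so the shared direction is not a replicate of the genotypes.

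**Figure D5:**
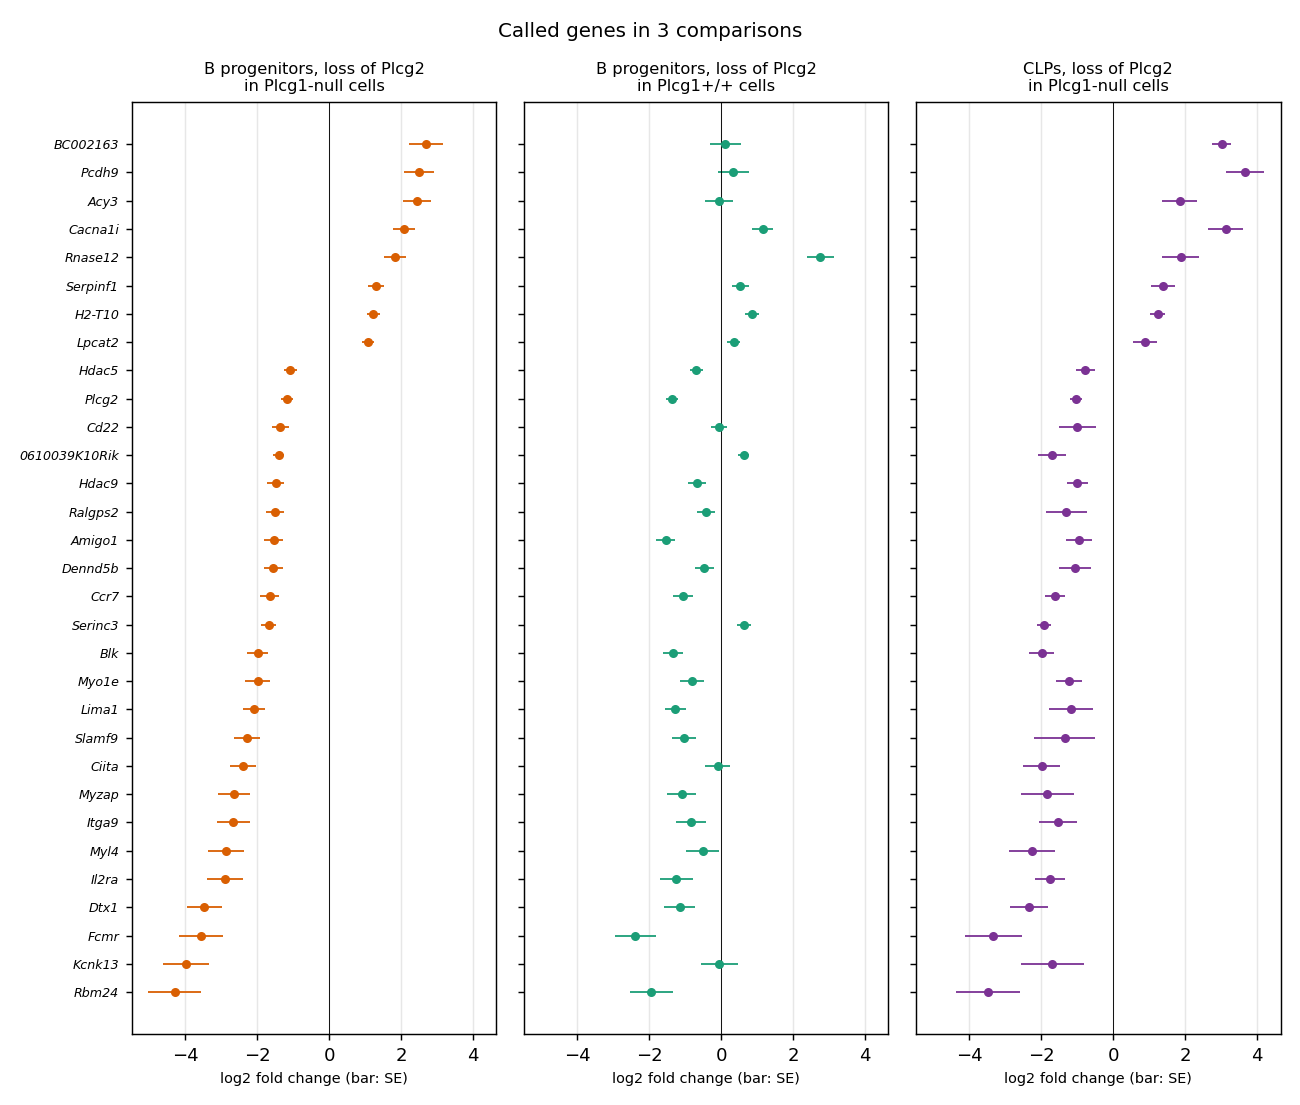
Log2 fold changes (points) with SE (bars) of 31 of the 32 called genes for loss of Plcg2 in Plcg1-null B cell progenitors, in Plcg1+/+ B cell progenitors and in Plcg1-null CLPs. The first panel chose the genes. Serinc3 and 0610039K10Rik change side in the second panel, at 0.63 and 0.62, and all 31 keep their side in the third.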

How the data were processed

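For each library the authors aligned poly(A) RNA-seq reads to mm10 with STAR 2.5.0a through BaseSpace and deposited raw counts for 24421 genes by symbol. The counting program and its strand setting are not given in the sources used here, and the library kit (NEBNext Ultra RNA) does not mark strand. Rows for reads on no gene or ambiguous reads were left out of library sizes and tests. Samples were grouped by genotype and population in the labels. Counts of the 12 B cell progenitor libraries were fitted together with edgeR 4.0.16 in R 4.3.3 (TMM, filterByExpr, glmQLFit, glmQLFTest), with no block and Benjamini-Hochberg adjustment over 15001 genes. CPM are TMM-scaled, and an SE is the fold change over the root of F. Intervals from depth cover counting error only. CLPs were fitted likewise, and contrasts of contrasts tested differences between backgrounds and populations. No set test was run. The chi-square per degree of freedom between replicates was 14.6 to 38.3, so none is a copy. The scripts were tested on simulated data.

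The members, the 21 pathway and 13 marker lists and the rule for named genes (the targeted genes, every called gene up to 40, up to 4 members a list by p, the factors Tcf3, Ebf1, Pax5, Il7r, Rptor and Rictor, and the called genes of each difference test) were chosen with earlier results of these data known. Other genes named from the lists, such as Fcer2a, Cd2 and Bst1, Irf4, Igll1, Cd72, Lyn and H2-Ob, were picked after their values were seen. Alternatives were RLE size factors, no filter, adjusted p alone, DESeq2 1.42.0, the 6 libraries alone, the replicate number as a block, the share of reads on no gene as a covariate, thinning to 2858724 reads and each library left out. A called gene and some list members are not reported here by name or value. Promoter sequences are RefSeq's (GRCm38.p6).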

Additional observations from a re-analysis of the deposited data

Results flagged for a closer look

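The effect of Plcg2 loss differed between Plcg1-null and Plcg1+/+ B cell progenitors for 4 genes by the interaction contrast in edgeR. For Serinc3 the difference was -2.31 (log2) and for 0610039K10Rik -2.02, and the genes share 300 bases. Mmp14, a membrane-bound matrix metalloproteinase, differed by -3.65: it was at 2.7, 1.94 and 3.15 CPM in Plcg1+/+Plcg2+/+, 12.1, 17.1 and 9.53 in Plcg1+/+Plcg2-/-, 7.7, 10.8 and 14.1 in Plcg1-/-Plcg2+/+ and 5.62, 3.19 and 4.67 in Plcg1-/-Plcg2-/- libraries (edgeR adjusted p = 0.034). Eps8l1, an actin regulator of the EPS8 family, differed by 3.75: it was at 23.2, 18.3 and 17.6 CPM in Plcg1+/+Plcg2+/+ and at 2.01, 1.56 and 4.08 in Plcg1+/+Plcg2-/- libraries, while Plcg1-/-Plcg2+/+ and Plcg1-/-Plcg2-/- libraries overlapped, at 10.6 to 17 and 10.9 to 22.9 CPM (edgeR adjusted p = 0.034).

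Reads on no gene, which were left out of library sizes and entered only as a covariate in alternative fits, made up 87.3% of reads in Plcg1-/-Plcg2+/+ library 2 and 73.6% in library 3, above the 59.9% to 71.4% of the Plcg1+/+Plcg2+/+ libraries. Plcg1+/+Plcg2-/- libraries also reached 75.8%.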

How the results depend on the processing

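The 32 called genes kept their direction and an unadjusted p of at most 0.05 in every alternative run. Those runs reused libraries by which the 32 were chosen, so this was close to fixed in advance. The number called did not hold. It was 17 with RLE size factors (5 higher, 12 lower), 802 with DESeq2 (141 higher, 661 lower), 9 after thinning (2 and 7), 3 with the no-gene share as a covariate (2 and 1) and, for the 6 libraries alone, 0 in either direction in edgeR with 1124 genes at an unadjusted p of at most 0.05. Leaving out each library gave 0 to 58 genes, 0 to 44 higher and 0 to 14 lower. Where it gave 0, edgeR had 1822 genes at an unadjusted p of at most 0.05 without Plcg1-/-Plcg2-/- library 2 and 4068 without Plcg1-/-Plcg2+/+ library 1. Members called in the pathway lists, 6 in the report, were 3 with RLE, 41 with DESeq2, 0 for the 6 libraries alone, 2 after thinning, 0 with the covariate and 0 to 7 with a library left out. Of 15001 genes, 4 had a called difference between backgrounds, 642 with DESeq2, 2 after thinning, 0 with the covariate and 0 to 5 with a library left out. The difference between populations stayed at 0 in every edgeR fit run. The log2 fold change of Plcg2 was -1.18 for the 6 libraries alone (edgeR adjusted p = 0.187), -1.19 with the covariate (0.157) and -1.30 to -1.01 with a library left out (0.0324 to 0.205). The cause of these moves was not tested, beyond the smaller number of libraries in the fits that drop some.

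With the replicate block, 100 genes were called (37 higher, 63 lower, 22 in the lists), the 32 among them. Genes not called without the block were among them, such as Rasgrp1, Irf4, Bach2, H2-Ab1, Bcl11a, Erg and Rasgrp2 at edgeR adjusted p-values of 0.0242 to 0.0439. The numbers were not taken to pair the samples, since not every correlation passed 0.1: same-numbered libraries correlated at 0.0121 to 0.277 in their deviations from the group means and different-numbered ones at -0.247 to 0.207, and not every sample correlated best with its own number. The summed CPM of several lists nevertheless had the same order over numbers in both groups. Among them were granulocyte, basophil, megakaryocyte, stem cell and B lineage markers and the MHC class II and immediate early genes. The order differed for other lists, such as erythroid and macrophage markers. In fits added after seeing the data, the 15001 genes without Plcg1-/-Plcg2+/+ library 2 gave 3 calls (1 higher, 2 lower, 0 in the lists; Plcg2 at -1.18, edgeR adjusted p = 0.129), and the block with the covariate gave 37 (23 higher, 14 lower). Depth limits genes of a few CPM, since 3 reads are worth 0.12 to 1.05 CPM.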
